A study of Mus musculus with 40 samples.

Results

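Collagen chain genes are the genes that encode the alpha chains of the collagens. They were taken as every gene of the count table whose symbol has the form Col, a number, the letter a and a number (for example Col4a1), which gave 43 genes reported here of 24060 gene symbols. All 43 had at least 10 counts in at least 4 of the 40 libraries. In a single comparison 37 to 43 of them passed the same filter over the libraries of that comparison and were tested.

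RNA-seq was performed on mouse striatum with RiboTag, in which an AAV delivers a ribosomal protein with a haemagglutinin tag (RPL22-HA) to 1 cell type, so that its ribosomes can be pulled down together with the RNA they carry. This immunoprecipitate (IP) was compared with the input, which is RNA of the cleared lysate and holds all cell types of the tissue. A further set of libraries came from bulk striatum that was lysed directly. The study asked which transcripts astrocytes and neurons carry and what changes in SAPAP3 KO mice, a model of obsessive-compulsive disorder.

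There were 10 groups of 4 libraries, from 24 mice according to the series design. The astrocyte cohort was wild type, of strain C57/BL6NTac, and gave an astrocyte IP and its input. Its labels read only "Control" and name no AAV. It was taken as the cohort with the astrocyte RiboTag (GfaABC1D promoter) because the labels of the other wild-type IP carry hSyn. The neuron cohort was also wild-type C57/BL6NTac, with the RiboTag under the hSYN1 promoter, and gave a neuron IP and its input. The SAPAP3 cohort gave an IP and an input of WT mice, labelled C57/BL6J, and of SAPAP3 KO mice, labelled C57/BL6J-Dlgap3 KO, which lack a functional Dlgap3 gene in all cells. No source used here names the cell type of this RiboTag, so its libraries are called SAPAP3 WT IP and SAPAP3 KO IP. The bulk WT and bulk KO libraries are both labelled C57/BL6NTac, their age is not stated, and 1 animal number stands under both genotypes. The AAV was injected at 6 weeks of age in C57/BL6NTac mice and at 4.5 months in the SAPAP3 KO mice. Xist counts exceeded Y-linked counts, the pattern of female mice, in all 4 libraries of each neuron cohort group, in 1 of 4 in each SAPAP3 group, in 1 of 4 in bulk WT, and in none of the astrocyte cohort or of bulk KO. The bulk WT library was replicate 3, with 10787 Xist and 149 Y-linked counts, and bulk WT replicate 4 held 153 Xist beside 14329 Y-linked counts. Sex, strain, age and cohort therefore cannot be told apart where cohorts are set against each other.

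A collagen molecule is a helix of alpha chains that are often products of different genes, so that chains of one type depend on their partners. Fibrillar collagens (types I, II, III, V, XI, XXIV and XXVII) build the fibrils of connective tissue. Type IV collagen forms the sheet of basement membranes, which in brain lies between vessel cells and astrocyte endfeet. Type VI forms beaded filaments, the fibril-associated collagens sit on fibrils, the multiplexins (types XV and XVIII) sit in basement membrane zones, and types XIII, XVII, XXIII and XXV cross the plasma membrane. In brain, most fibrillar collagen is known from fibroblasts of the meninges and of large vessels, and most type IV collagen from endothelial and mural cells.

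Counted reads ranged from 23438112 to 84109800 per library, lowest in the inputs of the SAPAP3 WT mice and highest in the neuron IP. The labelled cell types were checked with 10 markers each. All 10 astrocyte markers rose in the astrocyte IP (median log2(FC) over input 3.01), and all 10 also rose in the SAPAP3 WT IP (2.26) and the SAPAP3 KO IP (2.38). In the neuron IP 3 of 10 neuron markers passed the fold limit (median 0.70). RNA of the other cell type remained. Of 10 neuron markers 2 were lower in the astrocyte IP (median -0.79), summing to 4620 to 4990 CPM against 7050 to 7360 CPM in its input. In the SAPAP3 WT and KO IPs 1 of 10 each was lower (-0.55 and -0.49). Of 10 astrocyte markers 1 was lower in the neuron IP (-0.58), with sums of 3160 to 3450 against 5460 to 5840 CPM. Endothelial markers fell in all 4 IPs, 10 of 10 each, with medians from -3.60 to -2.92, and microglial markers did likewise, with medians from -5.62 to -3.54. Most choroid plexus and ependymal markers went the other way. Of the 8 tested in the astrocyte IP 6 rose and 2 fell (median 1.93), of 9 in the SAPAP3 WT IP 6 rose and 0 fell (1.57), and of 9 in the SAPAP3 KO IP 5 rose and 1 fell (1.45), against 0 and 2 of 9 in the neuron IP (-0.08). Oligodendrocyte markers rose in the SAPAP3 IPs too, 4 of 10 and none lower in WT (median 0.75) and in KO (0.77), as did 5 of 10 precursor markers in KO (1.02), where 0 of 10 were called in WT (0.84). The precursor markers summed to 603 to 794 CPM in the SAPAP3 WT IP against 534 to 555 CPM in its input, and to 710 to 812 against 519 to 568 CPM in KO. In the astrocyte IP 0 precursor and 1 oligodendrocyte marker were lower and none higher (0.18 and -0.16), and in the neuron IP 8 and 10 were lower. Their part in the member values was not tested.

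The stretch before the start site is shown for Col8a2, the member with the largest log2(FC) in 3 of the 4 IPs, and for Col4a5 and Col4a6, an adjacent pair on chromosome X that moved together. The last 2 are read in opposite directions from start sites 1343 bases apart. Each stretch runs from 250 to 51 bases before the RefSeq start site in GRCm38.p6, lies outside any annotated exon, and is written 5′ to 3′ on the gene's strand. It covers chr4:126286544-126286743 (+) for Col8a2, chrX:141474127-141474326 (−) for Col4a6 and chrX:141475169-141475368 (+) for Col4a5. Capitals mark a match to any of 3 promoter motifs, each searched on both strands. The GC box was searched as GGGCGG. The CCAAT box was searched by the letters of its name. The TATA box was searched as TATAAA.
Col8a2: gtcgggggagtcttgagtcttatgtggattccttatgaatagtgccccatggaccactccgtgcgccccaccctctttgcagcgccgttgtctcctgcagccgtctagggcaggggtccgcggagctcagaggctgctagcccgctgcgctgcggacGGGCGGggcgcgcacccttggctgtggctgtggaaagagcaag
Col4a6: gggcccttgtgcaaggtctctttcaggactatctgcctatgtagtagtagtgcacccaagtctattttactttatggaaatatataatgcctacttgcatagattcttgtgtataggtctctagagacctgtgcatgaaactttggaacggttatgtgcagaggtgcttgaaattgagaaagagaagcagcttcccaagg
Col4a5: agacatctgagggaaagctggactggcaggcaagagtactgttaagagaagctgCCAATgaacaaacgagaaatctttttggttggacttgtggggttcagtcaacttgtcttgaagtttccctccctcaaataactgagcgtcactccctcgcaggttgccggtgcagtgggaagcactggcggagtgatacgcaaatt

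The Col8a2 stretch held 65.0% G and C and 1 GC box, which 24.6% of all 32851 RefSeq promoter stretches of this length hold. That of Col4a5 held 49.5% G and C and 1 CCAAT box (28.4% of all stretches), and that of Col4a6 held 42.5% and none of the 3 motifs. A TATA box, present in 9.1% of all stretches, was in none of the 3. A RefSeq promoter was found for 34 of the 43 members.

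Per length of transcript, few collagen chain genes were prominent in striatum. In each group 10 to 14 members had a mean of at least 1 FPKM (the count divided by the merged exon length and the library total, computed from the counts), and 5 to 14 were under 0.1 FPKM. Col25a1, a transmembrane collagen known from neurons whose shed part is found in amyloid plaques, was the highest member in the bulk groups, in both SAPAP3 inputs and IPs and in the neuron IP. Its group means were 7.05 to 11.8 FPKM. It made up 30.2% to 33.3% of all counts of the members in bulk KO and 33.9% to 39.4% in the neuron IP, but 15.1% to 16.0% in the astrocyte input. Col6a1, a short chain of type VI, was highest in the astrocyte input (19.7 ± 2.89 FPKM, SD, n = 4) and in the neuron input (11.2 ± 0.903). Col11a2, a chain of type XI known from cartilage and the inner ear, led in the astrocyte IP at 10.9 ± 0.591 FPKM.

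Summed over the members, the level was 221 to 288 CPM (counts scaled to the library total) in bulk WT, 260 to 276 in bulk KO, 359 to 385 in the astrocyte input and 415 to 443 in the neuron input. It was 331 to 355 CPM in the astrocyte IP and 256 to 278 in the neuron IP. The sum was thus lower in each neuron IP library than in each neuron input library, and likewise for astrocyte IP and input. These sums use library totals and not TMM, the scaling of the tests. Library totals place the genes of the IPs lower than TMM does (see the last section). The astrocyte gap is small, so its direction may depend on the scaling. In the SAPAP3 cohort IP and input overlapped in WT (323 to 361 against 312 to 338 CPM) and in KO (336 to 380 against 287 to 347 CPM).

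In the IP over input comparisons, members with high IP levels and members with low IP levels stood side by side. A gene was called where the edgeR adjusted p was under 0.05 and the log2(FC) exceeded 1 in either direction. In the astrocyte IP 7 of 39 tested members rose and 13 fell, against 13.5% and 13.2% of all 15441 genes tested (26.7% in either direction). Of 43 in the neuron IP none rose and 17 fell, against 0.464% and 15.5% of 16168 genes (16% in either direction). In the SAPAP3 WT IP 9 of 39 rose and 8 fell (11% and 12% of 15606 genes, 23% in either direction), and in the SAPAP3 KO IP 9 of 38 rose and 7 fell (12.3% and 11.4% of 15578 genes, 23.7% in either direction).

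Without the fold limit 33, 33, 30 and 26 members were called in the astrocyte, neuron, SAPAP3 WT and SAPAP3 KO IP, against 80.4%, 71.2%, 67.2% and 71.9% of all genes tested. The median log2(FC) of the tested members was -0.29 in the astrocyte IP, -0.88 in the neuron IP, -0.27 in the SAPAP3 WT IP and 0.09 in the SAPAP3 KO IP, where that of all genes tested lay between -0.03 and 0.00. Of the 43 values in the neuron IP 39 were negative, and 50.1% of all genes tested were positive there. The members that rose in the astrocyte IP and in both SAPAP3 IPs were 7: Col8a2, Col11a2, Col4a4, Col4a5, Col4a6, Col5a2 and Col6a5. Those that fell in all 4 IPs were 6: Col1a1, Col3a1, Col13a1, Col15a1, Col24a1 and Col26a1. None was called in opposite directions in 2 IPs, and 14 were called in none. In these pulled-down and whole-tissue RNAs, fewer cells of a type and less RNA per cell cannot be told apart.

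**Figure D1:**
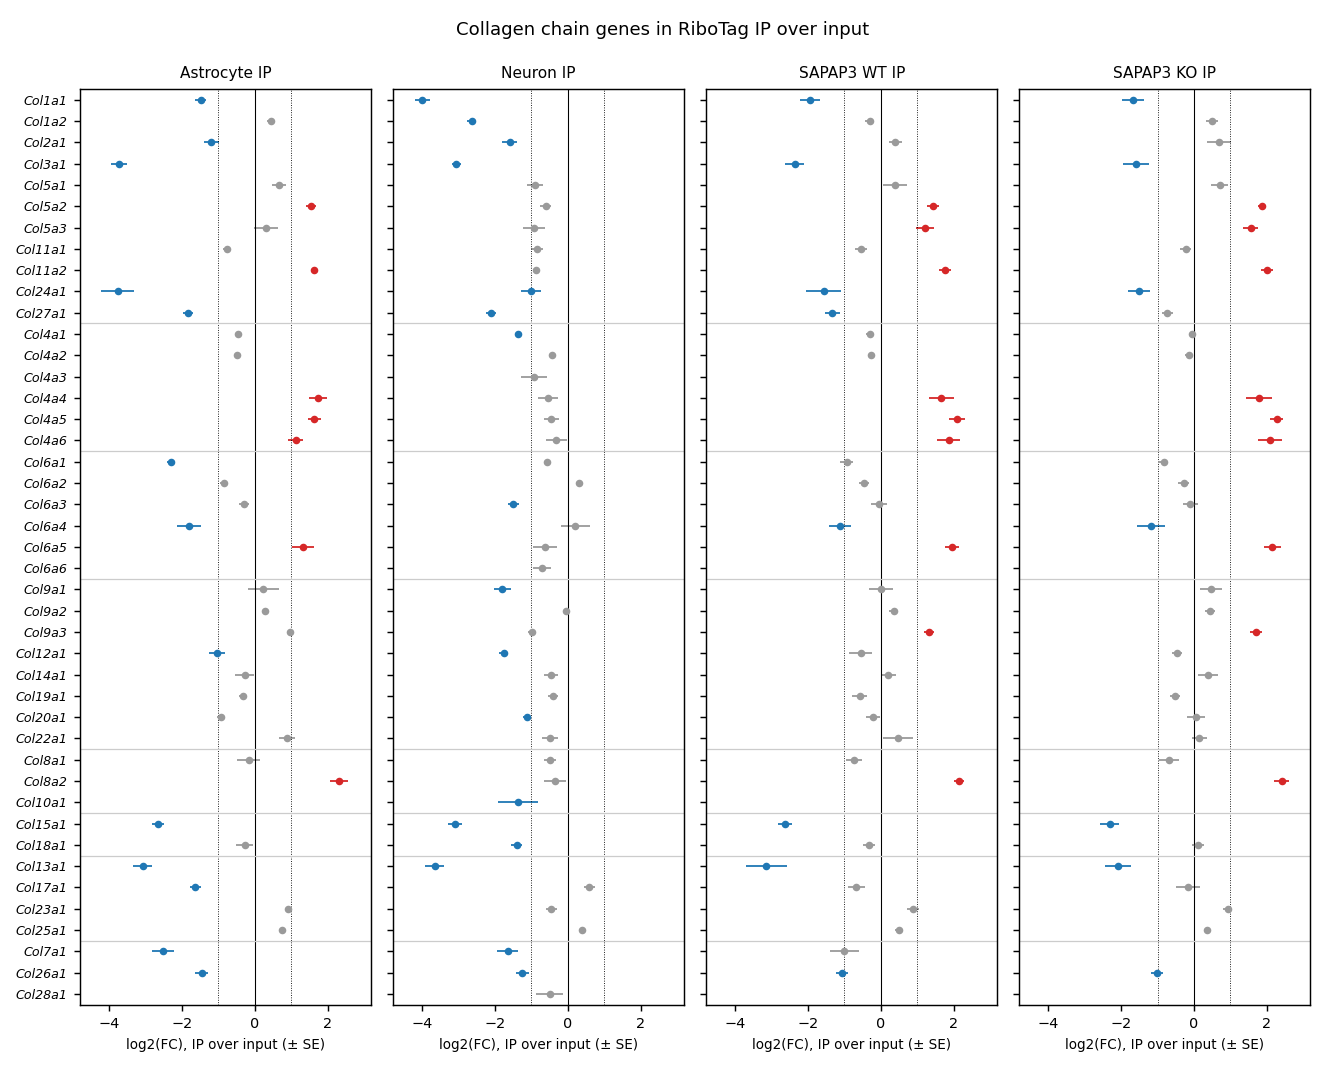
The log2(FC) of IP over input (x axis, points with SE) is plotted for each tested collagen chain gene (y axis, grouped by collagen family between the grey lines) in the 4 IPs, with red for called higher, blue for called lower, grey for not called and dotted lines at the fold limit. The neuron IP has no red point and 17 blue ones, and the other 3 IPs have 7 or 9 red ones, among them Col8a2, Col11a2, Col4a5 and Col4a6.

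Among the 11 fibrillar chains, 2 rose and 5 fell in the astrocyte IP, 0 and 6 in the neuron IP, 3 and 4 in the SAPAP3 WT IP, and 3 and 3 in the SAPAP3 KO IP. Col11a2 was the clearest of those that rose. Its 4 astrocyte IP libraries held 76.5, 79.9, 85.2 and 76.2 CPM and its inputs 27.8, 29.6, 29.2 and 32.0 CPM, a log2(FC) of 1.64 ± 0.05 (SE, edgeR adjusted p = 1.2e-10). The neuron IP held 10.9, 12.8, 10.5 and 10.9 CPM against 24.7, 26.8, 23.5 and 20.6 CPM in its input. IP and input did not overlap in either cohort, with the IP above its input in the one and below it in the other.

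Among the SAPAP3 WT mice Col11a2 was at 55.5, 37.0, 57.5 and 53.8 CPM in the IP and at 22.1, 15.0, 15.9 and 14.4 CPM in the input (log2(FC) 1.77 ± 0.17, edgeR adjusted p = 1.7e-05). In the SAPAP3 KO mice it was at 44.2, 38.6, 66.8 and 54.2 CPM against 13.9, 12.4, 16.4 and 15.9 CPM (2.00 ± 0.16, edgeR adjusted p = 1.4e-06). Each IP library was above each input library in both genotypes. Col11a1, which joins Col11a2 in type XI collagen, was not called in any IP, with log2(FC) of -0.76, -0.84, -0.55 and -0.22 in the astrocyte, neuron, SAPAP3 WT and SAPAP3 KO IP.

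Type V collagen starts the assembly of type I fibrils, and 2 of its 3 chains rose in some IP. Col5a2 was at 7.06, 6.38, 7.61 and 9.20 CPM in the astrocyte IP and at 3.14, 2.57, 2.90 and 3.48 CPM in the input (log2(FC) 1.54 ± 0.13, edgeR adjusted p = 7.1e-07). In the SAPAP3 WT and KO IPs its log2(FC) was 1.44 ± 0.16 and 1.87 ± 0.12, and in the neuron IP it was -0.61 ± 0.15, short of the fold limit. Col5a3 rose in both SAPAP3 IPs (1.21 ± 0.24 and 1.56 ± 0.21) and was at 0.31 ± 0.33 in the astrocyte IP, where replicate 2 held 0.564 CPM and the other 3 libraries 1.38 to 1.93. Col5a1 was called in none of the IPs, with log2(FC) from -0.90 in the neuron IP to 0.71 in the SAPAP3 KO IP.

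Summed over the 11 fibrillar chains, the level was 108 to 117 CPM in the astrocyte IP against 65.2 to 72 CPM in its input, 69.7 to 87.5 against 52.8 to 57.6 CPM in the SAPAP3 WT mice and 74.5 to 102 against 44.9 to 53.9 CPM in the SAPAP3 KO mice. The neuron IP held 25.1 to 28.9 CPM against 80.1 to 87.4 CPM. The sum was thus higher than in the input in 3 of the IPs and lower in the neuron IP, without overlap. Col11a2 held the largest part of it in those 3 IPs. Its mean was 79.4 of 111 CPM in the astrocyte IP and 29.6 of 68.8 CPM in the input. In the SAPAP3 WT mice it was 51 of 80.8 and 16.8 of 55.8 CPM, and in KO 51 of 86.6 and 14.6 of 48.2 CPM. The rise of the sum therefore does not describe the other fibrillar chains. Col3a1 and Col1a1 were the fibrillar chains besides Col24a1 that fell in all 4 IPs. Col3a1, the chain of type III collagen, was at 0.252, 0.304, 0.269 and 0.182 CPM in the astrocyte IP and at 2.82, 4.09, 4.73 and 4.17 CPM in its input (log2(FC) -3.74 ± 0.22, edgeR adjusted p = 2.9e-08). The neuron IP held 0.604, 0.540, 0.464 and 0.659 CPM against 5.28, 5.40, 5.47 and 5.68 CPM (-3.06 ± 0.12, edgeR adjusted p = 4.9e-08). In the SAPAP3 cohort Col3a1 fell by 2.37 ± 0.27 (WT) and by 1.59 ± 0.36 (KO) on the log2 scale. Every IP library was below every input library of its group in all 4 comparisons.

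Type I collagen is made of chains from Col1a1 and Col1a2, and these parted in 3 of the 4 IPs. Col1a1 fell in all of them, by 1.49 ± 0.16 in the astrocyte IP, by 4.00 ± 0.20 in the neuron IP, by 1.95 ± 0.28 in the SAPAP3 WT IP and by 1.67 ± 0.31 in the SAPAP3 KO IP. Col1a2 fell only in the neuron IP, by 2.64 ± 0.13 (edgeR adjusted p = 1.4e-07), where its libraries held 2.44, 2.70, 2.25 and 3.45 CPM against 18.5, 18.0, 22.0 and 19.6 CPM in the input. In the astrocyte IP it was at 12.9, 12.6, 13.3 and 10.9 CPM against 10.5, 11.3, 9.23 and 11.7 CPM, a log2(FC) of 0.44 ± 0.09, and in the SAPAP3 WT and KO IPs it was at -0.31 ± 0.12 and 0.49 ± 0.16. None of these 3 passed the fold limit.

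Of the remaining fibrillar chains, Col24a1 fell in all 4 IPs, most in the astrocyte IP, where its 4 libraries held 0 to 0.108 CPM against 0.6 to 1.17 CPM in the input (log2(FC) -3.77 ± 0.46). Its other values were -1.02 ± 0.28 in the neuron IP, -1.57 ± 0.48 in the SAPAP3 WT IP and -1.51 ± 0.30 in the SAPAP3 KO IP. Col27a1, known from cartilage, fell in the astrocyte (-1.84 ± 0.14), neuron (-2.10 ± 0.14) and SAPAP3 WT IP (-1.33 ± 0.21) and was at -0.73 ± 0.15 in the SAPAP3 KO IP. Col2a1, the chain of cartilage collagen, fell in the astrocyte (-1.19 ± 0.21) and neuron IP (-1.60 ± 0.21) and was at 0.40 ± 0.18 and 0.69 ± 0.34 in the SAPAP3 IPs. The call of Col24a1 in the neuron IP rests on a value at the fold limit. It was lost by limma-voom (-0.98) and without neuron IP replicate 2 (-0.95) or 4 (-0.88) or neuron input replicate 3 or 4 (-0.90 each), and that of the SAPAP3 WT IP was lost without input replicate 2 (-1.28).

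**Figure D2:**
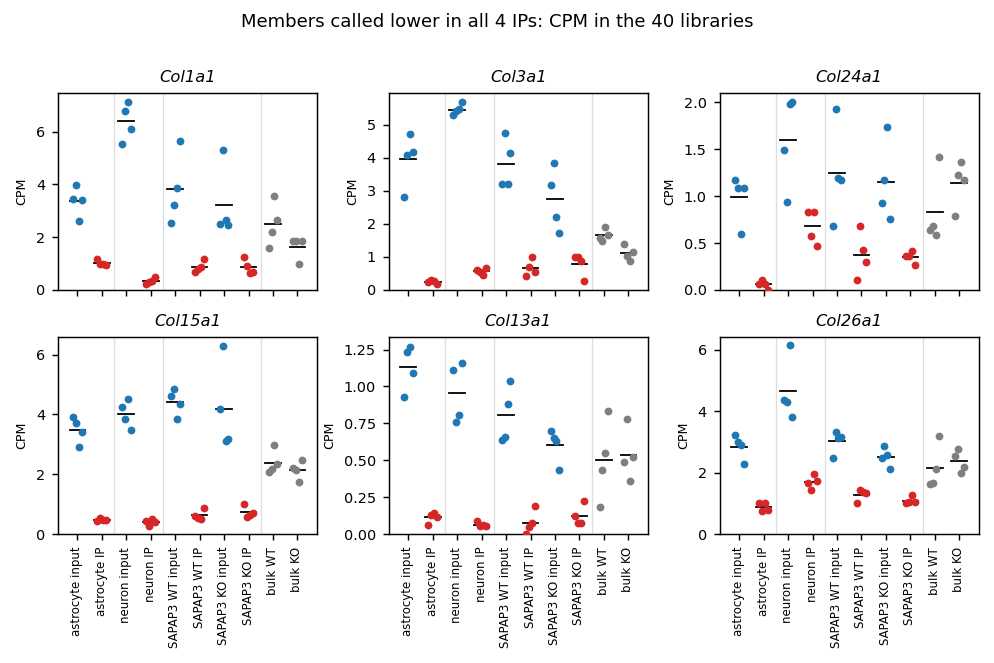
CPM, the counts scaled to the library total (y axis), are plotted for the 6 members called lower in all 4 IPs in each of the 10 groups (x axis), with 1 point a library, blue for inputs, red for IPs, grey for bulk and a line at the mean. For Col1a1, Col3a1, Col13a1, Col15a1 and Col26a1 the 4 points of each IP lie below all 4 points of its input.

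Most markers of fibroblasts were lower in the IPs in which Col3a1 and Col1a1 fell, while the summed fibrillar level was lower in the neuron IP only. Col11a2 held the largest part of that sum in the other IPs. The fibroblast markers were counted at the same fold limit. Of 9 tested, 7 fell in each IP and 1 rose in each but the neuron IP, with median log2(FC) of -2.74, -3.68, -2.49 and -2.72 in the astrocyte, neuron, SAPAP3 WT and SAPAP3 KO IP. Their summed level was 29.3 to 33.9 CPM in the astrocyte IP against 33.1 to 41.2 CPM in its input, and 10.3 to 12.1 CPM in the neuron IP against 42.6 to 71.2 CPM. Their part in the fall of these chains was not tested.

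The 6 type IV chains lie in the genome as 3 pairs of neighbouring genes, of which Col4a5 and Col4a6 were called together. Col4a5 and Col4a6, which form one kind of basement membrane network, both rose wherever astrocyte markers rose. Col4a5 was at 8.30, 7.38, 9.61 and 11.9 CPM in the astrocyte IP and at 2.94, 2.71, 3.87 and 4.29 CPM in the input (log2(FC) 1.64 ± 0.17, edgeR adjusted p = 4.5e-06). It was at 10.9, 16.3, 10.4 and 15.3 CPM in the SAPAP3 WT IP against 3.24, 4.91, 2.73 and 3.04 CPM (2.1 ± 0.22), and at 10.3, 17.4, 15.0 and 13.9 CPM in the SAPAP3 KO IP against 3.12, 4.26, 3.42 and 2.74 CPM (2.27 ± 0.18). The groups did not overlap in any of the 3 comparisons.

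Col4a6 was lower per length and varied more. The astrocyte IP held 2.33, 2.15, 3.22 and 4.11 CPM against 1.61, 1.59, 1.60 and 1.5 CPM in the input, a log2(FC) of 1.12 ± 0.21 (edgeR adjusted p = 0.00044) that was 0.90 with library totals in place of TMM scaling and 0.94 without astrocyte IP replicate 4, and so not past the limit. In the SAPAP3 IPs it reached 1.86 ± 0.32 (WT) and 2.09 ± 0.34 (KO). In the neuron IP neither gene was called, with log2(FC) of -0.45 ± 0.21 for Col4a5 and -0.32 ± 0.29 for Col4a6.

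Col4a4, a chain known from the kidney filter, rose in the same 3 IPs at a low level. It was at 0.588, 0.477, 0.537 and 0.545 CPM in the astrocyte IP against 0.161, 0.211, 0.200 and 0.162 CPM in the input (log2(FC) 1.73 ± 0.25, edgeR adjusted p = 6.3e-05), and its log2(FC) was 1.66 ± 0.35 in the SAPAP3 WT IP, 1.79 ± 0.36 in the SAPAP3 KO IP and -0.55 ± 0.28 in the neuron IP. Its neighbour Col4a3 had too few counts to be tested in those 3 IPs, with mean levels of 0.128 CPM in the astrocyte IP against 0.326 CPM in its input, 0.0789 against 0.318 CPM in the SAPAP3 WT mice and 0.133 against 0.297 CPM in the SAPAP3 KO mice, and was at -0.93 ± 0.35 in the neuron IP, not past the limit. The annotated genes of this pair, and of Col4a1 and Col4a2, overlap at their starts, and counts there are uncertain.

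Col4a1 and Col4a2, the chains of most basement membranes, were the highest of the type in FPKM in every group. Col4a1 fell only in the neuron IP, where it was at 13.6, 11.6, 13.2 and 14.2 CPM against 41.3, 35.6, 40.7 and 38.6 CPM (log2(FC) -1.36 ± 0.07, edgeR adjusted p = 2.2e-07). Col4a2 was at 20.9, 18.9, 21.7 and 19.9 CPM in the same IP and at 32.4, 30.2, 34.7 and 29.5 CPM in the input, a log2(FC) of -0.43 ± 0.07. In the astrocyte IP the values were -0.46 ± 0.07 for Col4a1 and -0.49 ± 0.06 for Col4a2, in the SAPAP3 WT IP -0.30 ± 0.11 and -0.27 ± 0.08, and in the SAPAP3 KO IP -0.05 ± 0.09 and -0.14 ± 0.11. The endothelial markers beside them fell in every IP, with a summed level of 12.8 to 14.6 CPM in the astrocyte IP against 130 to 165 CPM in its input and 9.75 to 11.6 CPM in the neuron IP against 129 to 147 CPM. Mural cell markers were mixed, with 3 of 10 higher and 6 lower in the astrocyte IP, 1 and 4 in the neuron IP, 2 and 5 in the SAPAP3 WT IP, and 4 and 5 in the SAPAP3 KO IP (medians -1.29, -0.87, -1.20 and -0.94). They summed to 163 to 171 CPM in the astrocyte IP against 153 to 162 CPM in its input and to 70.4 to 80.3 against 145 to 157 CPM in the neuron cohort, and in the SAPAP3 cohort to 122 to 141 against 141 to 171 CPM in WT, where the ranges met, and to 127 to 132 against 125 to 134 CPM in KO, where they overlapped. The part of vessel cells in the type IV levels was not tested.

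**Figure D3:**
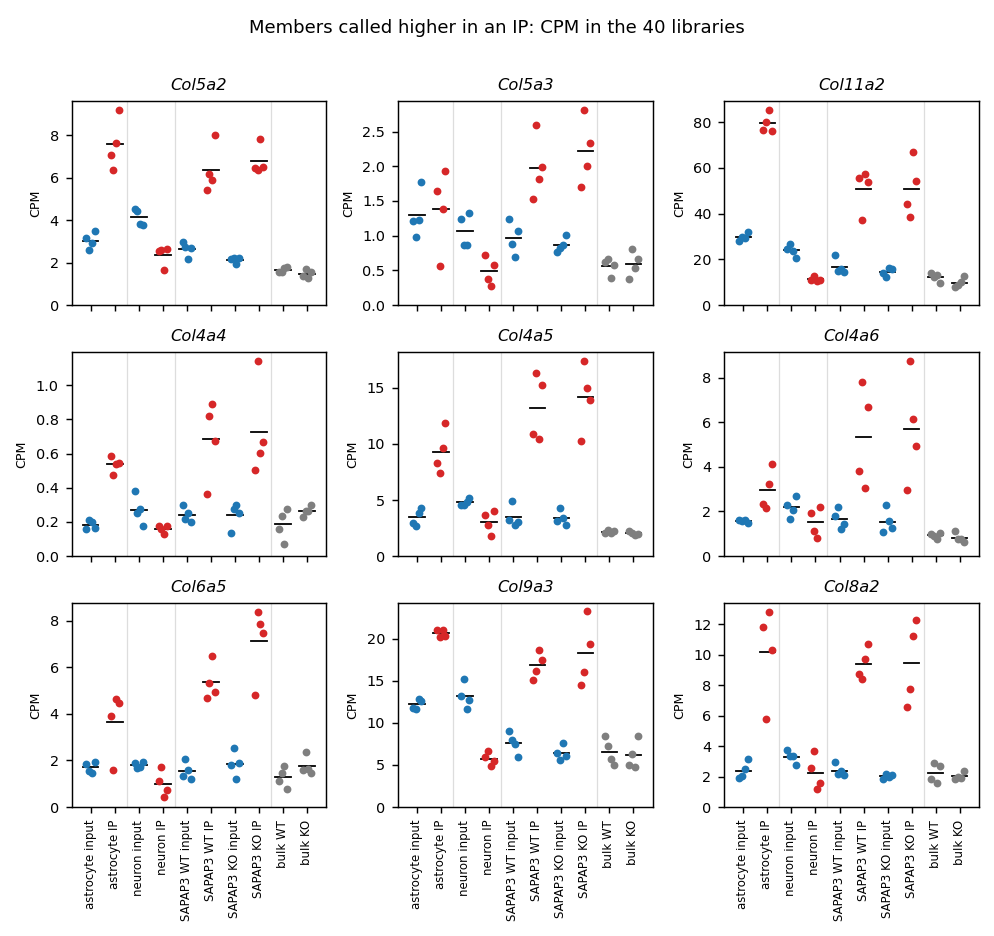
CPM, the counts scaled to the library total (y axis, from 0), are plotted for the 9 members called higher in at least 1 IP in each of the 10 groups (x axis), with 1 point a library, blue for inputs, red for IPs, grey for bulk and a line at the mean. The red points of the astrocyte and SAPAP3 IPs lie above the blue points of their inputs for Col11a2, Col4a5 and Col8a2, and those of the neuron IP do not.

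Type VI collagen has short chains from Col6a1 and Col6a2, which join 1 longer chain from another gene. Col6a1 fell in the astrocyte IP, from 87.2, 88.5, 72.6 and 64.8 CPM in the input to 13.6, 14.8, 14.4 and 11.4 CPM in the IP (log2(FC) -2.31 ± 0.11, edgeR adjusted p = 4.9e-09). In the neuron IP it was at 26.8, 25.1, 23.8 and 28.7 CPM against 47.5, 46.2, 39.5 and 45.3 CPM (-0.57 ± 0.07), and in the SAPAP3 WT and KO IPs at -0.94 ± 0.18 and -0.83 ± 0.13. IP and input did not overlap in any of the 4 comparisons, although only the first passed the fold limit. Col6a2 was at -0.85 ± 0.11, 0.30 ± 0.07, -0.47 ± 0.14 and -0.28 ± 0.15 in the astrocyte, neuron, SAPAP3 WT and SAPAP3 KO IP and was called in none.

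Of the longer type VI chains, Col6a5 rose in the astrocyte (log2(FC) 1.32 ± 0.30), SAPAP3 WT (1.96 ± 0.20) and SAPAP3 KO IP (2.15 ± 0.23). In the astrocyte IP it was at 3.91, 1.58, 4.63 and 4.47 CPM against 1.85, 1.55, 1.47 and 1.94 CPM, so that replicate 2 lay within the range of the input. Col6a4, next to it on chromosome 9, went the other way and fell in the same 3 IPs, by 1.81 ± 0.32, 1.13 ± 0.30 and 1.18 ± 0.38, from inputs of 14.7, 6.38, 5.63 and 8.58 CPM to 3.30, 1.48, 1.86 and 1.98 CPM in the astrocyte cohort. Its calls in the SAPAP3 IPs were lost without WT IP replicate 4 (-0.95), KO IP replicate 4 (-0.96) or KO input replicate 2 (-0.83). Col6a3 fell in the neuron IP only (-1.50 ± 0.15), and Col6a6 could be tested there only (-0.71 ± 0.25, not past the limit).

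Among the 8 fibril-associated chains, 0 rose and 1 fell in the astrocyte IP, 0 and 3 in the neuron IP, and 1 rose and 0 fell in each SAPAP3 IP. The one that rose was Col9a3, which is known from cartilage (log2(FC) 1.32 ± 0.13 in WT and 1.71 ± 0.16 in KO). Its astrocyte IP libraries held 21.0, 20.2, 21.1 and 20.3 CPM against 11.8, 11.7, 12.9 and 12.6 CPM in the input, a log2(FC) of 0.97 ± 0.05 that missed the limit with an edgeR adjusted p of 1.5e-08. Its neuron IP value was -0.99 ± 0.10. The other chains of type IX were not called with it. Col9a1 was at 0.24 ± 0.43, -1.80 ± 0.23 (fell), 0.00 ± 0.32 and 0.48 ± 0.30 in the 4 IPs, and Col9a2 at 0.27 ± 0.08, -0.04 ± 0.08, 0.35 ± 0.12 and 0.44 ± 0.13.

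Col12a1, which coats fibrils in dense connective tissue, fell in the astrocyte (-1.03 ± 0.22) and neuron IP (-1.76 ± 0.12). The value of the astrocyte IP lay at the fold limit and was -0.92, -0.95 and -0.96 without IP replicate 1, 2 and 3 and -0.94 without input replicate 2. Col20a1 fell in the neuron IP (-1.12 ± 0.12) and was at -0.93 ± 0.11 in the astrocyte IP. Col19a1, known from subsets of interneurons, was called in no IP (-0.31 ± 0.11, -0.40 ± 0.14, -0.58 ± 0.21 and -0.52 ± 0.14). Col14a1 and Col22a1 were called in none.

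Col8a2, a network-forming chain known from the inner lining of the cornea, had the largest rise in the astrocyte and both SAPAP3 IPs. It was at 11.8, 5.75, 12.8 and 10.3 CPM in the astrocyte IP and at 1.93, 2.01, 2.47 and 3.16 CPM in the input (log2(FC) 2.31 ± 0.25, edgeR adjusted p = 5.2e-06). The SAPAP3 WT IP held 8.75, 8.43, 9.74 and 10.7 CPM against 2.94, 2.15, 2.35 and 2.1 CPM (2.15 ± 0.14), and in the SAPAP3 KO IP at 6.57, 7.74, 11.2 and 12.3 CPM against 1.86, 2.20, 1.98 and 2.12 CPM (2.41 ± 0.20). All IP libraries of these groups stood above all of their inputs. The neuron IP held 2.54, 3.70, 1.18 and 1.55 CPM, overlapping its input at 3.74, 3.35, 3.33 and 2.74 CPM (-0.35 ± 0.30). Its type VIII partner Col8a1 was called in no IP, with log2(FC) of -0.17, -0.49, -0.74 and -0.69, and the related Col10a1 could be tested in the neuron IP only (-1.37 ± 0.54, edgeR adjusted p = 0.043), a call lost without neuron IP replicate 1, 2 or 3 (-1.10, -1.26 and -1.41) or neuron input replicate 2 or 3 (-1.44 and -0.76).

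Choroid plexus and ependymal markers were higher in the same 3 IPs as Col8a2. Their summed level was 83.9 to 138 CPM in the astrocyte IP against 54.5 to 59.4 CPM in its input, 129 to 168 against 40.9 to 58.0 CPM in the SAPAP3 WT mice and 112 to 171 against 41.2 to 47.9 CPM in the SAPAP3 KO mice. The neuron cohort held 28.1 to 54.0 CPM in the IP and 36.8 to 55.5 CPM in the input. Their part in the rise of Col8a2 and of the other members was not tested.

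Both multiplexins lie in the basement membrane zone of vessels. Col15a1 fell in all 4 IPs, by 2.65 ± 0.16 in the astrocyte IP, by 3.10 ± 0.18 in the neuron IP, by 2.64 ± 0.20 in the SAPAP3 WT IP and by 2.32 ± 0.27 in the SAPAP3 KO IP. Its astrocyte IP libraries held 0.420, 0.542, 0.455 and 0.477 CPM against 3.9, 3.70, 2.90 and 3.40 CPM in the input, with no overlap. Col18a1, the source of endostatin, fell in the neuron IP only (-1.41 ± 0.16) and was at -0.28 ± 0.23, -0.32 ± 0.17 and 0.12 ± 0.16 in the others.

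The transmembrane collagens differed from each other. Col25a1 was at 87.9, 83.4, 81.3 and 82.4 CPM in the astrocyte IP and 59.9, 56.9, 58.1 and 54.6 CPM in its input, and at 94.3, 106, 91.5 and 93.4 CPM in the neuron IP and 85.2, 89.1, 82.3 and 84.3 CPM in its input. Its log2(FC) of 0.76 ± 0.04, 0.38 ± 0.05, 0.49 ± 0.09 and 0.37 ± 0.09 in the astrocyte, neuron, SAPAP3 WT and SAPAP3 KO IP were positive in all 4 and short of the fold limit, with edgeR adjusted p from 1.4e-08 to 0.0033. Col23a1 was at 0.92 ± 0.09 in the astrocyte IP, 0.88 ± 0.16 and 0.93 ± 0.12 in the SAPAP3 IPs and -0.45 ± 0.15 in the neuron IP. Neither gene was called.

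Col13a1, known from the neuromuscular junction, fell in all 4 IPs, by 3.08 ± 0.27, 3.66 ± 0.27, 3.15 ± 0.56 and 2.09 ± 0.36 on the log2 scale, from inputs of 0.432 to 1.27 CPM to IPs of 0 to 0.222 CPM. Col17a1, a component of hemidesmosomes, fell in the astrocyte IP (-1.63 ± 0.16) and was at 0.59 ± 0.15 in the neuron IP, the largest positive value of any member there, short of the limit. Its libraries held 0.693, 0.803, 0.703 and 0.681 CPM in the astrocyte IP against 2.41, 2.78, 2.93 and 2.19 CPM, and 1.20, 1.55, 1.22 and 1.18 CPM in the neuron IP against 1.07, 1.06, 0.961 and 0.862 CPM. The astrocyte input was thus the group with the highest Col17a1.

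Of the remaining chains, Col26a1 fell in all 4 IPs (-1.46 ± 0.17, -1.25 ± 0.17, -1.07 ± 0.17 and -1.01 ± 0.16), and its values in both SAPAP3 IPs lay close to the fold limit. In the SAPAP3 KO IP its call was lost without IP replicate 1, 2 or 4 (-0.97, -1.0 and -0.98) or input replicate 2 or 3 (-0.94 and -0.99), and in the SAPAP3 WT IP without IP replicate 1 (-0.99). Col7a1, the chain of the anchoring fibrils of skin, fell in the astrocyte (-2.53 ± 0.30) and neuron IP (-1.65 ± 0.29). Col28a1, tested in the neuron IP only, was at -0.50 ± 0.38.

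The levels of partner chains were then set against each other per length. The FPKM of Col1a2 was 3.23 to 3.99 times that of Col1a1 in the astrocyte input and 12.5 to 15.2 times in the astrocyte IP. The ratio was 2.99 to 3.79 in the neuron input and 7.15 to 11.6 in the neuron IP, 2.41 to 4.69 and 7.83 to 11.4 in the SAPAP3 WT mice, 2.43 to 4.21 and 9.90 to 24.1 in the SAPAP3 KO mice, and 2.41 to 5.54 in bulk. Each IP library thus had a higher ratio than any input or bulk library. For Col4a2 over Col4a1 the ratio was 1.63 to 1.92 in the neuron IP and 0.891 to 1.28 in all other groups. For Col6a1 over Col6a2 it was 8.36 to 9.78 in the astrocyte input and 2.59 to 5.88 elsewhere. For Col4a5 over Col4a6 it was 3.06 to 3.79 in the astrocyte IP and 1.82 to 3.05 in its input, without overlap. The other groups lay between 1.92 and 3.7, with IP and input overlapping in the neuron and SAPAP3 cohorts. For Col4a4 over Col4a3, both at low counts, it was 0.331 to 1.86 in the inputs and 2.04 to 8.92 in the astrocyte and SAPAP3 IPs. In the neuron IP this ratio was 0.741 to 0.911, in bulk WT 0.372 to 1.02 and in bulk KO 0.662 to 2.36, where it met the range of those IPs.

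**Figure D4:**
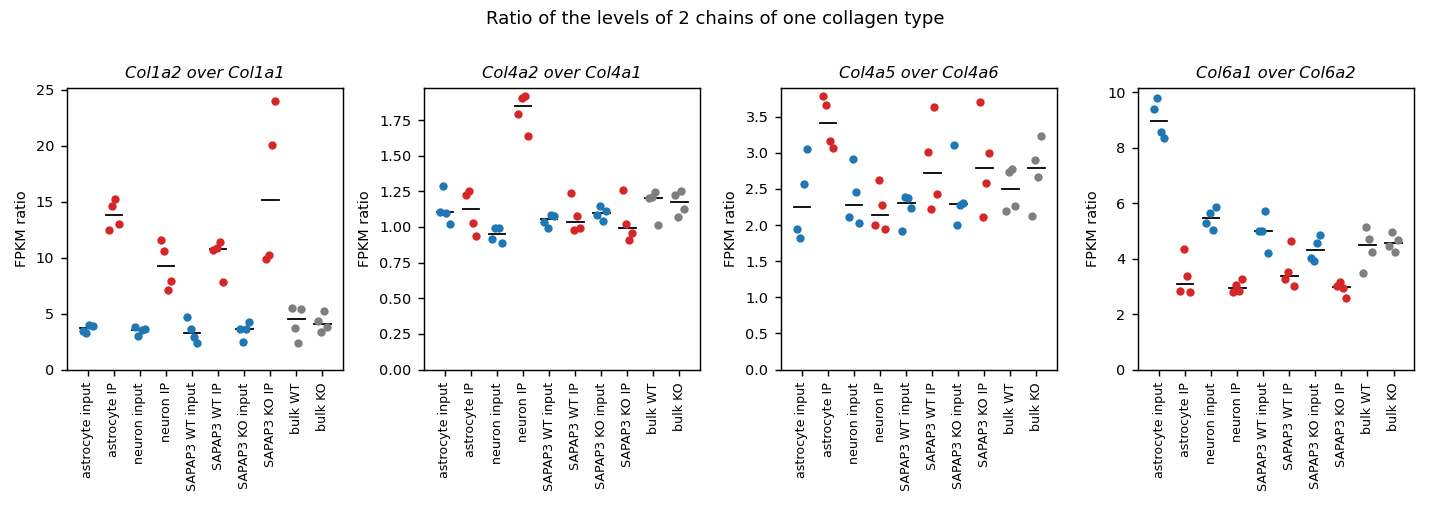
The ratio of the FPKM values of 2 chains of one collagen type (y axis, from 0) is plotted in each of the 10 groups (x axis), with 1 point a library, blue for inputs, red for IPs, grey for bulk and a line at the median. Col1a2 over Col1a1 is higher in every IP than in every input, Col4a2 over Col4a1 stands out in the neuron IP at 1.63 to 1.92, and Col6a1 over Col6a2 in the astrocyte input at 8.36 to 9.78.

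Whether the enrichment itself differed between the neuron and the astrocyte cohort was tested with an interaction term, at an edgeR adjusted p under 0.05 without a fold limit. It differed for 28 of 43 members, against 69.9% of all 16393 genes. It was higher in neurons for 6 members (35.7% of all genes) and lower for 22 (34.2%). The 6 were Col24a1 (difference of log2(FC) 2.76 ± 0.60), Col17a1 (2.20 ± 0.20), Col6a4 (2.01 ± 0.57), Col6a1 (1.73 ± 0.14), Col6a2 (1.14 ± 0.13) and Col3a1 (0.68 ± 0.25). For Col24a1 and Col3a1 the difference is between 2 falls of unequal size. Col6a1 was likewise below its input in both IPs, in the neuron IP short of the fold limit.

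The 22 lower ones included every member that rose in the astrocyte IP, with differences of -2.67 ± 0.43 for Col8a2, -2.53 ± 0.11 for Col11a2, -2.30 ± 0.36 for Col4a4, -2.17 ± 0.21 for Col5a2, -2.10 ± 0.30 for Col4a5, -1.98 ± 0.48 for Col6a5 and -1.46 ± 0.39 for Col4a6. Both type I chains were among them, Col1a2 at -3.09 ± 0.16 and Col1a1 at -2.51 ± 0.25. For Col4a1 the difference was -0.91 ± 0.11 and for Col4a2 0.05 ± 0.09, with a 95% interval of -0.16 to 0.25. That of Col4a3 was 0.20 ± 0.55 and not called. The remaining 12 were Col9a1 (-2.05), Col9a3 (-1.97), Col5a1 (-1.56), Col22a1 (-1.39), Col23a1 (-1.38), Col5a3 (-1.25), Col6a3 (-1.22), Col18a1 (-1.13), Col12a1 (-0.74), Col25a1 (-0.39), Col9a2 (-0.32) and Col10a1. Col10a1 had at most 1 count in each astrocyte input library, so its fitted difference depends on the prior count and is no bound on the fold. Its call was lost without astrocyte IP replicate 1 (edgeR adjusted p = 0.078) or astrocyte input replicate 1, 3 or 4 (0.053, 0.059 and 0.055). The calls of Col12a1 and Col3a1 were lost without astrocyte IP replicate 4 (-0.46 and 0.54), that of Col3a1 also by limma-voom (0.64, adjusted p = 0.067), and that of Col5a3 without astrocyte IP replicate 1 or 4 (-1.15 and -1.06), astrocyte input replicate 2 (-1.14), neuron IP replicate 3 (-1.05) or neuron input replicate 4 (-1.13). Here cohort, sex and sequencing depth move with the cell type and cannot be told apart from it.

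Genes that act with the collagens were counted in the same IPs, here and in the next paragraph. Of all genes tested, 13.5% were higher and 13.2% lower in the astrocyte IP, and 0.464% and 15.5% in the neuron IP. In the SAPAP3 WT IP these shares were 11% and 12%, and in the SAPAP3 KO IP 12.3% and 11.4%. Of the enzymes and chaperones that modify, fold and cross-link collagen, 8 of 27 tested rose and 1 fell in the astrocyte IP, 0 rose and 7 of 30 fell in the neuron IP, 9 of 28 rose and 1 fell in the SAPAP3 WT IP, and 9 of 28 rose and 0 fell in the SAPAP3 KO IP. In the astrocyte IP the largest changes were those of the cross-linking enzyme Loxl1 (log2(FC) 2.45 ± 0.10), the collagen chaperone Fkbp10 (2.41 ± 0.06) and the galactosyltransferase Colgalt2 (2.29 ± 0.10). Those of the SAPAP3 WT IP were Fkbp10 (2.33 ± 0.16), the prolyl hydroxylase subunit P4ha3 (2.00 ± 0.21) and Loxl1 (1.91 ± 0.14), and in the SAPAP3 KO IP Fkbp10 (2.51 ± 0.12), the collagen chaperone Serpinh1 (2.08 ± 0.12) and P4ha3 (1.98 ± 0.19). In the neuron IP Lox, a cross-linking enzyme (-4.58 ± 0.49), Pcolce, an enhancer of procollagen processing (-2.69 ± 0.19), and Loxl2 (-1.95 ± 0.47) fell most. Pcolce was also the enzyme-list gene that fell in the astrocyte IP (-1.70 ± 0.20) and in the SAPAP3 WT IP (-1.12 ± 0.17).

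Of 16 basement membrane partners, 6 rose and 2 fell in the astrocyte IP, 0 and 9 in the neuron IP, 4 and 2 in the SAPAP3 WT IP, and 5 and 2 in the SAPAP3 KO IP. The laminin chain Lamb2 rose by 2.15 ± 0.06, 1.91 ± 0.12 and 2.19 ± 0.09 in the astrocyte, SAPAP3 WT and SAPAP3 KO IP, Sparc by 1.63 ± 0.07, 1.88 ± 0.12 and 2.1 ± 0.14, and the laminin chain Lama2 by 1.94 ± 0.06, 1.34 ± 0.08 and 1.58 ± 0.10. Nid2 rose in the same IPs (1.27 ± 0.09, 1.13 ± 0.20 and 1.29 ± 0.16) and fell in the neuron IP (-1.54 ± 0.13), where Hspg2, the core protein of perlecan, fell most (-1.99 ± 0.08). The laminin chain Lamc3 fell in all 4 IPs (-1.61 ± 0.14, -1.63 ± 0.15, -1.75 ± 0.29 and -1.65 ± 0.14 in the astrocyte, neuron, SAPAP3 WT and SAPAP3 KO IP). Of 9 collagen receptors tested, 4 rose and 2 fell in the astrocyte IP, 0 and 3 in the neuron IP, 3 and 2 in the SAPAP3 WT IP, and 4 and 2 in the SAPAP3 KO IP. The receptor kinase Ddr2 rose by 2.90 ± 0.10, 1.76 ± 0.21 and 2.1 ± 0.12 in the astrocyte, SAPAP3 WT and SAPAP3 KO IP and the integrin chain Itga2 by 2.79 ± 0.36, 2.22 ± 0.38 and 2.07 ± 0.41, and the related kinase Ddr1 by 1.08 ± 0.08, 1.42 ± 0.13 and 1.62 ± 0.09. The enrichment differed between neuron and astrocyte cohort for 26 of 30 enzymes and chaperones (6 higher and 20 lower in neurons), 14 of 16 basement membrane partners (4 and 10) and 8 of 9 receptors (1 and 7). It differed for 69.9% of all 16393 genes, 35.7% higher and 34.2% lower. None of these genes was called between genotypes. The inhibitory receptor Lair1, known from immune cells, fell in all 4 IPs (-1.48 ± 0.13, -2.79 ± 0.13, -2.07 ± 0.20 and -1.56 ± 0.10 in the same order as Lamc3), as did the integrin chain Itga10 (-1.65 ± 0.35, -2.28 ± 0.25, -1.60 ± 0.28 and -1.13 ± 0.35), and Itga1 fell in the neuron IP (-1.30 ± 0.12).

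Inputs were next compared with bulk striatum, which asks whether the lysate used for RiboTag held the same collagen RNA as tissue lysed directly. Col3a1 was called higher in all 4 comparisons. The other members mostly had positive values, several of them past the fold limit in the astrocyte and neuron inputs. At the same fold limit 9 of 40 tested members were higher and 1 lower in the astrocyte input over bulk WT (5.76% and 3.25% of all 15773 genes, 9.02% in either direction). In the neuron input 11 of 43 were higher and 0 lower (4.45% and 0.375% of 16264, 4.82% in either direction). The SAPAP3 WT input had 1 of 41 higher and 0 lower (5.01% and 0.044% of 15898, 5.06% in either direction), and the SAPAP3 KO input over bulk KO 1 of 42 higher and 0 lower (4.91% and 0.125% of 15974, 5.03% in either direction). Without the fold limit the members called were 24, 25, 6 and 14, against 48.9%, 27.4%, 12% and 23.6% of all genes. Leaving out 1 library, the counts with the fold limit were up to 3 in the SAPAP3 WT input (without bulk WT replicate 4) and up to 4 in the SAPAP3 KO input (without bulk KO replicate 4; 3 without bulk KO replicate 1 or SAPAP3 KO input replicate 1, 3 or 4). The first 3 comparisons share the same 4 bulk WT libraries, and strain, sex, virus and age differ between inputs and bulk as well, so these cannot be told apart from the lysis.

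The log2(FC) was positive for 33 of 40 tested members in the astrocyte input, 43 of 43 in the neuron input, 39 of 41 in the SAPAP3 WT input and 38 of 42 in the SAPAP3 KO input, where 49.9% to 50.5% of all genes tested were positive. The medians of the members were 0.58, 0.76, 0.46 and 0.34, and that of all genes was 0.00 in each. Markers of microglia were higher in the inputs too, with medians of 1.09, 0.93, 1.23 and 0.99. Endothelial markers were at 0.42, 0.36, 0.68 and -0.01, and fibroblast markers at -0.10, 0.62, 0.06 and 0.09. Their part in the member values was not tested.

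Col3a1 was at 1.57, 1.49, 1.90 and 1.65 CPM in bulk WT and at 1.38, 1.03, 0.875 and 1.14 CPM in bulk KO, and at 3.2, 4.76, 3.2 and 4.14 CPM in the SAPAP3 WT inputs and 3.19, 3.85, 2.22 and 1.73 CPM in the SAPAP3 KO inputs. Each input library was above each bulk library of its comparison, in the astrocyte and neuron cohorts too. Its log2(FC) was 1.15 ± 0.18 in the astrocyte input, 1.61 ± 0.11 in the neuron input, 1.16 ± 0.18 in the SAPAP3 WT input and 1.30 ± 0.25 in the SAPAP3 KO input, with edgeR adjusted p from 0.00022 to 0.0035. In the neuron input the other 10 higher members were mostly connective tissue and basement membrane chains, namely Col5a1 (1.59 ± 0.49), Col11a1 (1.31 ± 0.22), Col1a1 (1.24 ± 0.22), Col5a2 (1.21 ± 0.12), Col9a1 (1.12 ± 0.30), Col4a6 (1.11 ± 0.19), Col12a1 (1.07 ± 0.25), Col1a2 (1.04 ± 0.18), Col4a5 (1.03 ± 0.10) and Col4a1 (1.01 ± 0.10). Col5a1 overlapped between input and bulk, and its call was lost without any 1 of 7 of the 8 libraries (log2(FC) 1.31 to 1.72, all but bulk WT replicate 4). Others lie at the limit. Calls were lost for Col1a2 without bulk WT replicate 1, 2 or 3 or input replicate 3 (0.94 to 0.99), for Col4a1 without bulk WT replicate 2 or 3 or input replicate 1 or 3 (0.95 to 0.98), for Col12a1 without bulk WT replicate 2 or 3 or input replicate 3 (0.91 to 0.99), for Col9a1 without bulk WT replicate 3 or input replicate 1, 2 or 4 (0.91 to 1.15), and for Col4a5 and Col4a6 without input replicate 4 (0.99 each). The count of 11 was 6 without bulk WT replicate 3, 7 without bulk WT replicate 2 or neuron input replicate 3, and 16 without bulk WT replicate 4.

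In the astrocyte input the largest difference was that of Col6a1, at 64.8 to 88.5 CPM against 16.8 to 26.4 CPM in bulk WT (log2(FC) 1.70 ± 0.15, edgeR adjusted p = 3.2e-05). In the neuron input it was at 0.89 ± 0.13 and in the SAPAP3 inputs at 0.46 ± 0.17 (WT) and 0.10 ± 0.08 (KO). The others called higher in the astrocyte input were Col7a1 (1.62 ± 0.23), Col17a1 (1.59 ± 0.19), Col6a4 (1.25 ± 0.36), Col11a2 (1.16 ± 0.11), Col27a1 (1.10 ± 0.14), Col5a3 (1.09 ± 0.24) and Col13a1 (1.08 ± 0.38), and Col8a1 was lower (-1.20 ± 0.34). Of the 9 members called higher there, Col3a1 is the 1 that is also among the 11 of the neuron input. The call of Col13a1 was lost without any of the 4 inputs (1.01 to 1.16) or bulk WT replicate 1 or 2 (0.81 and 1.01), that of Col5a3 without input replicate 4 (0.91) or bulk WT replicate 3 (0.96), that of Col6a4 without input replicate 1 (0.88), and that of Col8a1 without input replicate 1 (-1.09) or bulk WT replicate 4 (-0.82).

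The partner chains were also set side by side over bulk. Col4a1 and Col4a2 were at 0.73 ± 0.11 and 0.68 ± 0.07 in the astrocyte input, 1.01 ± 0.10 and 0.72 ± 0.09 in the neuron input, 0.53 ± 0.12 and 0.38 ± 0.09 in the SAPAP3 WT input, and 0.40 ± 0.08 and 0.31 ± 0.10 in the SAPAP3 KO input. Col4a5 and Col4a6 were at 0.56 ± 0.16 and 0.64 ± 0.16, 0.63 ± 0.19 and 0.76 ± 0.22, and 0.71 ± 0.15 and 0.90 ± 0.26 in the astrocyte, SAPAP3 WT and SAPAP3 KO input, and Col6a2 was at 0.65 ± 0.12, 0.57 ± 0.11, 0.27 ± 0.15 and 0.19 ± 0.12 in the 4 inputs. In the astrocyte input that is beside 1.70 ± 0.15 for Col6a1, and the FPKM ratio of Col6a1 over Col6a2 was 8.36 to 9.78 there and 3.5 to 5.13 in bulk WT, without overlap. Col1a1 and Col1a2 were at 0.32 ± 0.24 and 0.17 ± 0.19 in the astrocyte input, 0.56 ± 0.31 and 0.23 ± 0.19 in the SAPAP3 WT input, and 0.96 ± 0.28 and 0.64 ± 0.15 in the SAPAP3 KO input. Col4a3 was at 0.64 ± 0.37, 0.63 ± 0.38, 0.64 ± 0.30 and 0.39 ± 0.44, and Col4a4 at 0.41 ± 0.40 in the neuron input and -0.14 ± 0.30 in the SAPAP3 KO input. Col25a1, the highest member, was at -0.43 ± 0.09, 0.13 ± 0.08, -0.01 ± 0.11 and -0.06 ± 0.08, and Col19a1 at -0.82 ± 0.20, 0.37 ± 0.20, 0.10 ± 0.23 and 0.16 ± 0.10.

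In the comparison of genotypes the targeted gene was checked first. Dlgap3 was at 166 to 200 CPM in the KO inputs against 376 to 514 CPM in the WT inputs, at 49.8 to 87.2 against 154 to 212 CPM in the IPs, and at 144 to 161 against 232 to 385 CPM in bulk, so each KO library was below each WT library of its kind. Reads of the gene remained in the KO libraries. In bulk 0 of 16078 genes were called between genotypes, so Dlgap3 was not called there either. The bulk test thus missed a gene whose KO and WT libraries did not overlap. Its lack of calls does not show that other genes are unchanged.

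No collagen chain gene was called between SAPAP3 KO and WT in any of the 3 kinds of library. At an edgeR adjusted p under 0.05 without a fold limit 0 of 38 tested members were called in the inputs, 0 of 37 in the IPs and 0 of 43 in bulk, where 0.0064%, 0.0262% (0.00654% higher and 0.0196% lower) and 0% of all genes were called. At an unadjusted p under 0.05 there were 1, 2 and 5 members, and the smallest adjusted p of a member was 0.74, 1.0 and 0.98. limma-voom and DESeq2 also called 0 members in each. The 95% interval of the log2(FC) lay within -1 and 1 for 32 of 38 members in the inputs, 32 of 37 in the IPs and 29 of 43 in bulk. For the others it reached past that range.

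The 1 member under 0.05 in the inputs was Col17a1 (log2(FC) -0.67 ± 0.22), at 0.631, 0.859, 0.630 and 0.684 CPM in KO and 1.54, 0.945, 1.07 and 1.04 CPM in WT, with no overlap. In the IPs they were Col1a2 (0.56 ± 0.16) and Col6a5 (0.43 ± 0.18). In bulk they were Col7a1 (-0.91 ± 0.27), Col1a2 (-0.61 ± 0.21), Col3a1 (-0.60 ± 0.17), Col20a1 (-0.25 ± 0.11) and Col25a1 (0.22 ± 0.09). Col1a2 is listed both times with opposite signs. It was at 10.8, 8.33, 11.1 and 14.6 CPM in the KO IP and 6.41, 7.40, 8.74 and 8.11 CPM in the WT IP, and at 7.15, 5.60, 4.48 and 6.21 CPM in bulk KO and 7.77, 7.11, 7.55 and 12.6 CPM in bulk WT, and the groups overlapped in both.

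For the remaining pairs the log2(FC) of KO over WT in input, IP and bulk was -0.10, 0.11 and 0.02 for Col4a1 and -0.03, 0.06 and 0.04 for Col4a2, each with an SE of at most 0.10. It was -0.01, 0.12 and -0.10 for Col4a5, -0.07, 0.11 and -0.21 for Col4a6, -0.23, -0.17 and 0.12 for Col6a1, and -0.02, 0.13 and 0.06 for Col6a2. Col1a1 was at -0.23, 0.01 and -0.63, Col4a4 at 0.11 in the IPs and 0.47 in bulk, Col4a3 at 0.15 in bulk, Col25a1 at 0.18 in the inputs and 0.02 in the IPs, and Col19a1 at 0.12, 0.14 and 0.05. Col8a2 and Col9a2 lie 0.85 Mb and 6.11 Mb from Dlgap3 on chromosome 4, where sequence from the strain of origin of the targeted allele may remain. Col8a2 was at -0.19 ± 0.15, 0.02 ± 0.19 and -0.18 ± 0.19, and Col9a2 at -0.11 ± 0.11, -0.06 ± 0.13 and 0.08 ± 0.09.

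**Figure D5:**
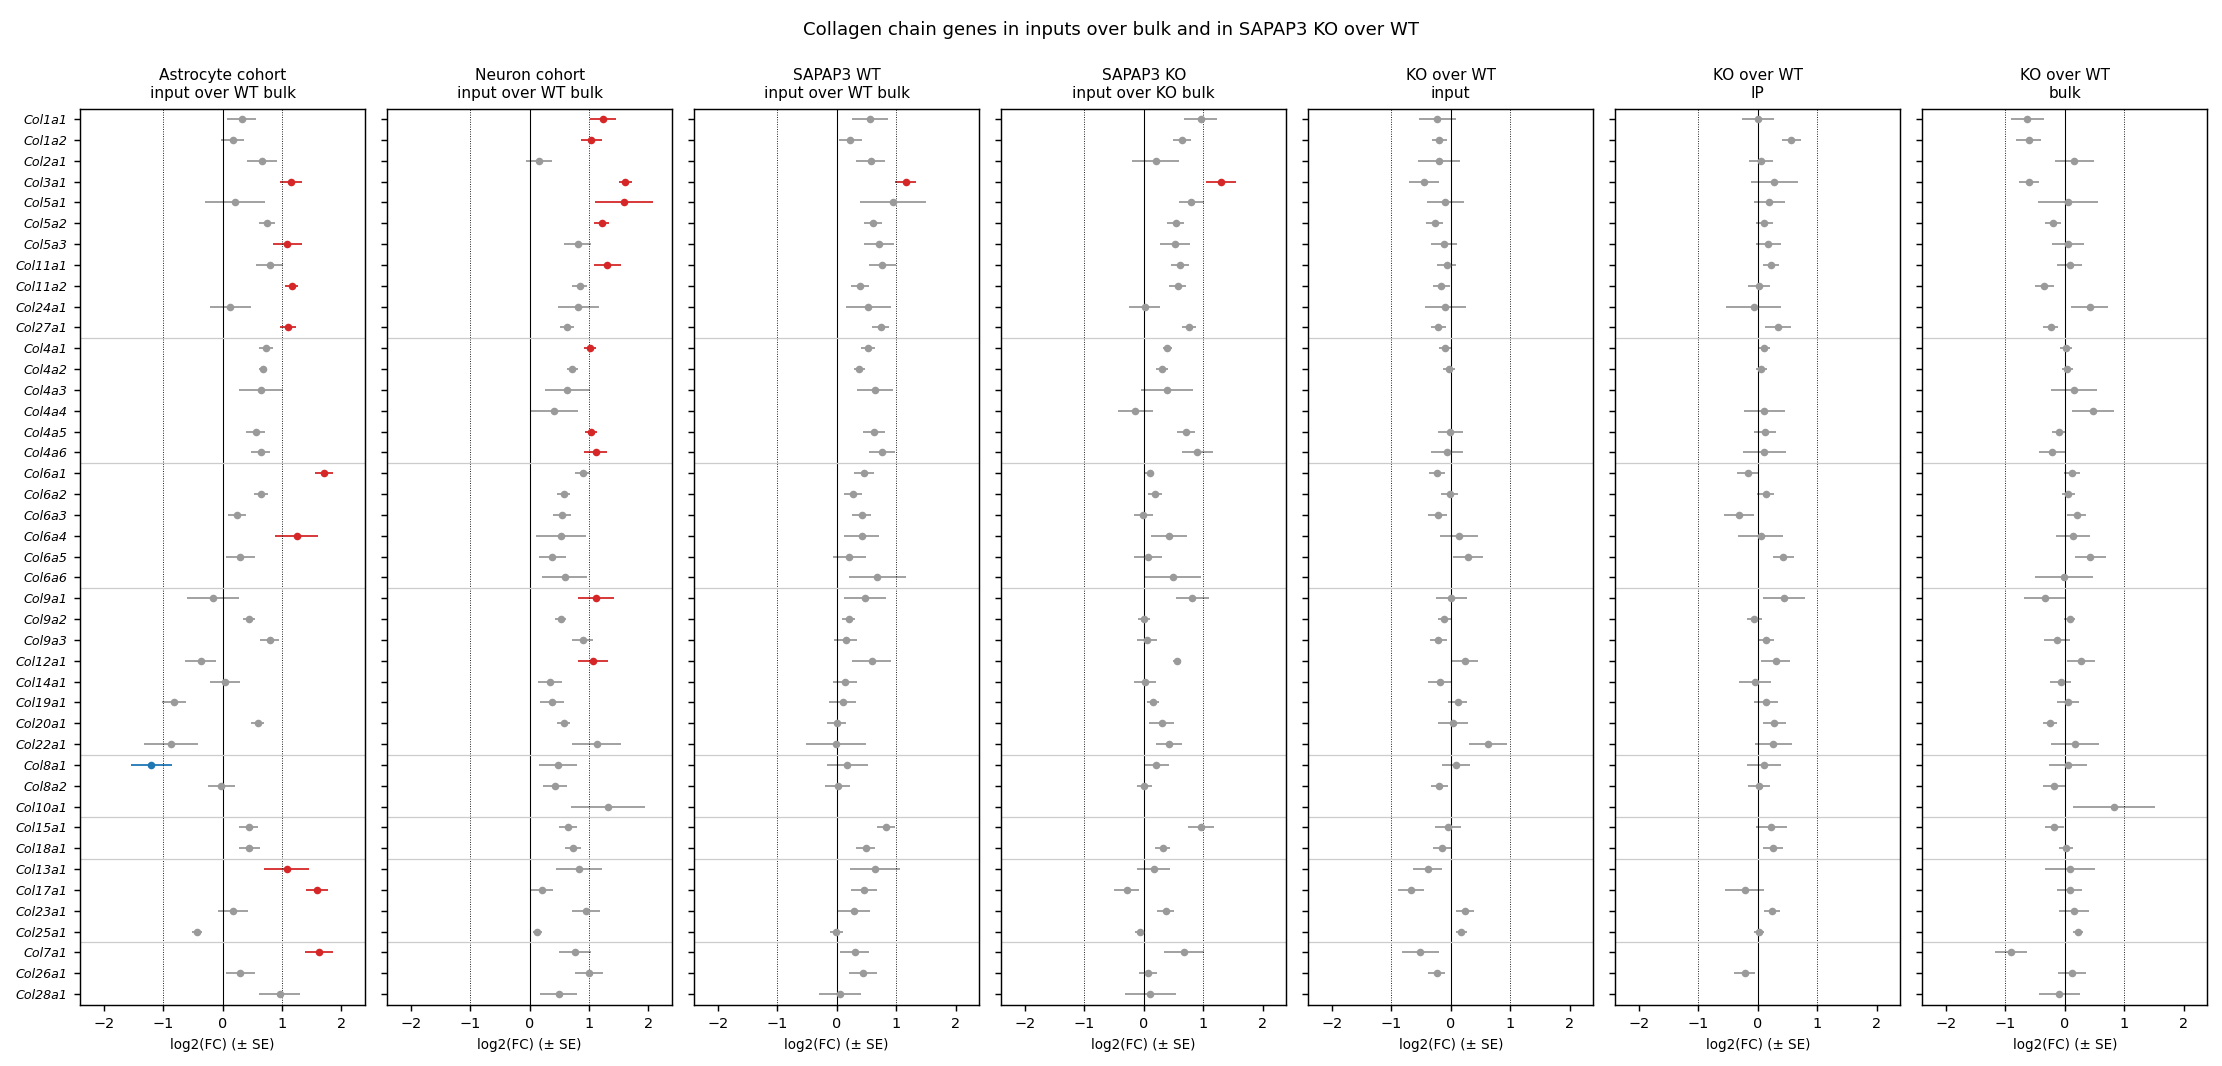
The log2(FC) (x axis, points with SE) is plotted for each tested collagen chain gene (y axis, grouped by family between the grey lines) for the 4 inputs over bulk and for SAPAP3 KO over WT in input, IP and bulk, with red for called higher, blue for called lower, grey for not called and dotted lines at -1 and 1. In the neuron input all 43 points lie above 0, and none of the points of the 3 genotype panels is called.

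The enrichment in the IP was also compared between genotypes. None of 39 tested members was called (0% of 16005 genes were called), with 2 at an unadjusted p under 0.05, Col1a2 (difference of log2(FC), KO minus WT, 0.75 ± 0.21) and Col27a1 (0.56 ± 0.26). For the partner chains the difference was 0.24 ± 0.44 for Col1a1, 0.21 ± 0.15 for Col4a1, 0.09 ± 0.14 for Col4a2, 0.08 ± 0.53 for Col4a4, 0.13 ± 0.30 for Col4a5, 0.18 ± 0.51 for Col4a6, 0.07 ± 0.24 for Col6a1 and 0.15 ± 0.22 for Col6a2. It was -0.16 ± 0.14 for Col25a1 and 0.02 ± 0.28 for Col19a1. It was positive for 35 of the 39 members and for 52.5% of all genes. The median difference was 0.19 for the members and 0.01 for all genes. The markers of microglia had a larger one of 0.88 over 10 genes, none of them called. Their summed level was 36.0 to 119 CPM in the KO IP against 29.6 to 60.6 CPM in the WT IP. Endothelial markers had a median difference of 0.39. Their part in the member values was not tested.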

How the data were processed

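RNA-seq libraries were made from striatum of RiboTag mice (IP and input) and from bulk striatum, 4 libraries in each of 10 groups. The authors deposited raw read counts per gene symbol for all 40 libraries in 1 table. Per the study's methods and the submitters' processing notes, reads were aligned with STAR to mm10, and the notes also name HTSeq with no role. Whether counting used strand is not given in the sources used here, and the labels and the methods name different library kits. The 43 members and the lists of other genes were chosen with earlier results of these data known. 1 gene that the rule takes is not reported here.

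Genes with at least 10 counts in at least 4 libraries of a comparison were tested on the counts as deposited, with edgeR 4.0.16 (TMM scaling, quasi-likelihood test, R 4.3.3) fitted across all genes. p-values were adjusted by Benjamini and Hochberg over all genes tested. IP over input and input over bulk were called at an adjusted p under 0.05 and a log2(FC) beyond 1, genotypes and differences of enrichment at an adjusted p under 0.05. Each comparison was fitted on its own groups. The test was tried on simulated counts with known changes. At a log2(FC) of 2 in size edgeR recovered 99.5% in the astrocyte IP and 96% in the SAPAP3 WT input over bulk. At a size of 1 it recovered 81.9% in KO over WT in bulk. False calls were 2.03%, 1.04% and 6.32% of its calls, and 15.6% with DESeq2 in the last. The real bulk test missed Dlgap3, so the simulated share is not carried over to it. Levels per library are CPM of the library total, and FPKM were computed from the counts with merged RefSeq exon lengths of GRCm38.p6, which were found for 99.2% of symbols. Promoter sequences are from RefSeq (GRCm38.p6). Software for tables and figures was Python 3.11.15 with pandas 2.3.3, numpy 2.4.6 and matplotlib 3.10.9.

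Animals of one group are separate by their labels, and p-values measure the spread between these libraries. No 2 libraries of the same group held identical counts. By the labels, an IP and an input that share a number are from 1 animal in the astrocyte and SAPAP3 cohorts, while in the neuron cohort they share the number only. Their deviations from the group means had a mean correlation of 0.453 to 0.654 (lowest pair 0.258), so the numbers were taken to pair the libraries. Other pairs were at -0.202 to -0.15. Deviations within a group cancel out, so positive values for own pairs make those of other pairs negative. The negative values are thus no separate evidence. Depth was 23438112 to 84109800 counts per library. Alternatives were DESeq2 1.42.0, limma-voom (limma 3.58.1), other scalings and filters, a replicate block, leaving out each library, Xist as a covariate for genotypes and for the SAPAP3 WT input over bulk, and leaving out genes within 20 Mb of Dlgap3. Members named in the text are all that were called in a comparison, the partner chains Col1a1 and Col1a2, Col4a1 to Col4a6 and Col6a1 and Col6a2, the 3 members with the highest mean level in inputs and bulk (Col25a1, Col6a1 and Col19a1), and up to 3 genes of each other list with the largest change in each IP. Further members and genes were named after their values were seen.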

Additional observations from a re-analysis of the deposited data

Results flagged for a closer look

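In 18 of 430 sets of 4 libraries (43 members in 10 groups) 1 library stood apart from the other 3 by Dixon's criterion, which is 4.19%, where chance gives about 1 in 20. All values are CPM of the library total. Among the fibrillar chains, Col1a1 was at 1.18 in astrocyte IP replicate 1 (others 0.954 to 0.992), at 5.29 in SAPAP3 KO input replicate 2 (2.45 to 2.64) and at 0.968 in bulk KO replicate 3 (1.85 to 1.87). Col1a2 was at 12.6 in bulk WT replicate 4 (7.11 to 7.77). Col24a1 was at 0.60 in astrocyte input replicate 3 (1.09 to 1.17) and at 1.42 in bulk WT replicate 4 (0.585 to 0.683). Col5a2 was at 7.80 in SAPAP3 KO IP replicate 3 (6.36 to 6.51), at 1.92 in SAPAP3 KO input replicate 3 (2.19 to 2.23) and at 1.64 in neuron IP replicate 3 (2.53 to 2.66).

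Col4a2 was at 21.2 in SAPAP3 KO IP replicate 1 (17.0 to 17.7), and Col6a6 at 0.134 in SAPAP3 WT input replicate 4 (0.377 to 0.40). Of the fibril-associated chains, Col12a1 was at 3.97 in astrocyte IP replicate 4 (1.95 to 2.19) and Col14a1 at 1.07 in SAPAP3 WT IP replicate 2 (1.78 to 1.90) and at 0.951 in bulk WT replicate 3 (1.48 to 1.57). Col17a1 was at 1.55 in neuron IP replicate 2 (1.18 to 1.22), Col26a1 at 1.26 in SAPAP3 KO IP replicate 3 (1.01 to 1.04), and Col28a1 at 0.398 in SAPAP3 KO input replicate 1 (0.172 to 0.21). Col10a1 was at 0.0352, which is 1 count, in astrocyte input replicate 2 and at 0 in the others.

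The enrichment in the IP differed between the neuron and the astrocyte cohort for 28 members by the interaction term (edgeR adjusted p under 0.05). The difference of log2(FC), neuron minus astrocyte, was positive for Col24a1 (2.76), Col17a1 (2.20), Col6a4 (2.01), Col6a1 (1.73), Col6a2 (1.14) and Col3a1 (0.68). It was negative for the type IV chains Col4a1 (-0.91), Col4a4 (-2.30), Col4a5 (-2.10) and Col4a6 (-1.46) and for the fibrillar chains Col1a1 (-2.51), Col1a2 (-3.09), Col5a1 (-1.56), Col5a2 (-2.17), Col5a3 (-1.25) and Col11a2 (-2.53). The other negative values were those of Col6a3 (-1.22), Col6a5 (-1.98), Col8a2 (-2.67), Col9a1 (-2.05), Col9a2 (-0.32), Col9a3 (-1.97), Col12a1 (-0.74), Col18a1 (-1.13), Col22a1 (-1.39), Col23a1 (-1.38), Col25a1 (-0.39) and Col10a1 (-3.96, a fitted value that depends on the prior count and is no bound on the fold).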

How the results depend on the processing

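Single members were followed under the alternatives only where they were called in the reported test. Calls gained under an alternative are therefore not counted here, and a reversal of a called value was unlikely beforehand. Of the 2017 values of such members 1941 kept their direction and side of the threshold, 76 kept their direction and lost the call, and none reversed. Without the fold limit the members called were 33 in the astrocyte IP (14 higher, 19 lower), 33 in the neuron IP (3 and 30), 30 in the SAPAP3 WT IP (12 and 18), 26 in the SAPAP3 KO IP (14 and 12), and, over bulk, 24 (21 and 3), 25 (25 and 0), 6 (6 and 0) and 14 (14 and 0) in the astrocyte, neuron, SAPAP3 WT and SAPAP3 KO input. Leaving out 1 library at a time gave 19 to 21, 16 to 20, 16 to 18 and 14 to 17 called members in the 4 IPs, 7 to 11, 6 to 16, 1 to 3 and 1 to 4 in the inputs over bulk, 0 to 0 in the genotype comparisons and 25 to 29 in the neuron minus astrocyte difference. With library totals in place of TMM, the median of all genes moved by -0.24, -0.20, -0.20 and -0.21 in the 4 IPs (log2), and by 0.11 and 0.12 in the astrocyte and neuron input over bulk. The calls over all genes then went from 2078 higher and 2039 lower to 1678 and 2727 in the astrocyte IP, from 1722 and 1872 to 1416 and 2412 in the SAPAP3 WT IP and from 1920 and 1774 to 1561 and 2427 in the SAPAP3 KO IP, and the members to 6 higher and 15 lower, 0 and 23, 9 and 10, and 9 and 8 in the 4 IPs. The genotype counts stayed at 0 with Xist as a covariate (inputs, IPs and bulk) and without genes near Dlgap3, and the SAPAP3 WT input over bulk kept 1 called member with Xist. That fit was not run for the other inputs over bulk, where one or both groups held libraries of 1 sex only.

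With the replicate block, the counts of called members were 20, 17, 18 and 16 in the astrocyte, neuron, SAPAP3 WT and SAPAP3 KO IP, 28 in the neuron minus astrocyte difference and 0 in the KO minus WT difference. In the SAPAP3 WT IP 9 rather than 8 members were lower, and no other count moved. Members with a few counts per library, such as Col10a1, Col4a3 and Col6a6, could not be tested in most IPs at this depth.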
